A study of Mus musculus with 6 samples.

Results

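The genes described here are 10 components of the insulin, Akt and mTOR signaling pathway in mouse skeletal muscle. They were chosen by name, and each was found once among the 52550 mouse genes of the deposited table. They comprise the receptors Insr and Igf1r, the adaptors Irs1 and Irs2, the kinases Akt1, Akt2 and Mtor, the scaffolds Rptor and Rictor, and the inhibitor Tsc1. RNA of 3 FLExDUX4 mice and 3 wild-type littermates (WT), all male and labelled as 13 weeks old, was sequenced with QuantSeq, which reads the 3′ end of polyadenylated transcripts. FLExDUX4 mice were hemizygous for an inverted, lox-flanked human DUX4 transgene at the Rosa26 locus. No Cre driver was part of the genotype, and DUX4 RNA in these mice comes from leaky transcription at a very low level. The transgene itself was not analysed here, so the genotype labels were not checked against it.

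The deposited table gives the counts of each gene summed over the mice of a genotype, 13110125 counts on genes for FLExDUX4 and 18367364 for WT. Each genotype is therefore a single total over 3 mice. No spread between mice enters any value below, no test was run, and 1 mouse can decide a ratio. After TMM scaling, each gene is given as the log2 ratio of its FLExDUX4 total over its WT total, with a 95% interval for counting error alone. The labels name quadriceps, whereas the methods of the study name triceps and a younger age. Of the genes that mark the hindlimb, Pitx1 and Hoxc10 had at most 1 count in each total and Tbx4 had 10 in each. Hoxa11, which patterns both limbs, had 60 counts in FLExDUX4 and 82 in WT, and Hoxd10 had 2 and 0. Tbx5, which marks the forelimb, had 14 counts in FLExDUX4 and 34 in WT. The summed level of 8 skeletal muscle markers was 83923 CPM (counts scaled to 1e6 per library) in FLExDUX4 and 84075 in WT. Spike-in RNAs took 220016 and 259913 further counts, and scaling to them moved every log2 ratio by -0.28.

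Insulin and IGF-1 bind the receptors encoded by Insr and Igf1r, which phosphorylate the adaptors IRS1 and IRS2 and thereby recruit PI3-kinase. The lipid it makes brings AKT1 and AKT2 to the membrane, where PDK1 and mTOR complex 2, built on RICTOR, phosphorylate them. AKT inhibits the TSC complex, of which TSC1 is a subunit, so that RHEB activates mTOR complex 1, built on the scaffold RPTOR. In skeletal muscle this pathway drives glucose uptake and protein synthesis, and AKT keeps FoxO factors, which switch on atrophy genes, out of the nucleus.

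Of the 10 genes, Irs1 and Rptor were lower in the FLExDUX4 total by more than the fold set for a call, which is a log2 ratio of at least 0.5 in size with an interval that excludes 0. None was higher by that fold. Both genes had been listed by the study as lower from these samples, so their direction is not independent evidence. Across all 13396 genes compared, 22.6% were past this fold, 11.3% higher and 11.3% lower. The members' 2 of 10 is close to that share. Among the 4394 genes whose counts lie in the range of these members (338 to 2003 counts in both totals), 7.87% were past it, 4.57% higher and 3.3% lower. Rptor stands at the low end of that range, and its counting interval is the widest of the members. Scaled to the spike-ins, 3 members were past the fold, all lower, the third being Irs2. The split over all genes was then 5.79% higher and 23.8% lower. In bulk muscle, fewer cells of a type and less RNA per cell cannot be told apart.

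The sequences upstream of Irs1, Irs2 and Rptor are shown because Irs1 and Rptor were the members past the fold with TMM scaling, and Irs2 is the other adaptor, past it with spike-in scaling alone. Each run is the 250 bases before a transcription start, from RefSeq on GRCm38.p6, read 5′ to 3′ on the strand of the gene. Capitals mark matches, on either strand, to CACGTG (the E-box, recognised by basic helix-loop-helix factors such as CLOCK with its partner), GGGCGG (the GC box) or GTAAACA (the core bound by FoxO and other forkhead factors).
Irs1 (chr1:82291440-82291689, minus strand): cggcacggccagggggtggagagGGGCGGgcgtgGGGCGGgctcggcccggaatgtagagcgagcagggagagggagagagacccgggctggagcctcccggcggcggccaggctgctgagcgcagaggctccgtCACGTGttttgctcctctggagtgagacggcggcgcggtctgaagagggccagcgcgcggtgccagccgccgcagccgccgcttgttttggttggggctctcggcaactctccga
Irs2 (chr8:11008930-11009179, minus strand): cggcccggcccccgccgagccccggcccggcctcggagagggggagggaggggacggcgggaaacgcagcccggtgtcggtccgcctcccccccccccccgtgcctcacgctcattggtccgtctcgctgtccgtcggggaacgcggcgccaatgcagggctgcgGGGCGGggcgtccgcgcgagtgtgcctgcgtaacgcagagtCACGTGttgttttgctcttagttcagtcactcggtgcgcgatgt
Rptor (chr11:119602655-119602904, plus strand): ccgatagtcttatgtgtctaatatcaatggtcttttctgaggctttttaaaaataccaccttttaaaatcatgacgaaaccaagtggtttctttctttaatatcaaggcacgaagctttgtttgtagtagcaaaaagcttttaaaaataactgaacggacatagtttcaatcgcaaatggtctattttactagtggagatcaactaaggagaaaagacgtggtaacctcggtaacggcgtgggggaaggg

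Irs1 and Irs2 each hold CACGTG once, a sequence found in 6.02% of 32851 windows of the same length across the genome's promoters. Of the 10 members, 9 were matched in the promoter table, with 13 windows, and Irs1 and Irs2 were the 2 members with this match. GGGCGG occurs in 7 of the 13 windows, against 32.7% of all windows, and GTAAACA occurs in 1, a window of Akt1, against 3.17% of all. The Rptor window holds none of the 3 sequences. Its GC content of 37.6% is the lowest of the 13 windows. The other windows run from 48.8% in one of Akt2 to 81.2% in Rictor, with Mtor and Tsc1 at 54.4%, Irs1 at 72.4% and Irs2 at 72.8%. These are matches of letters and were not set against any binding data.

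**Figure D1:**
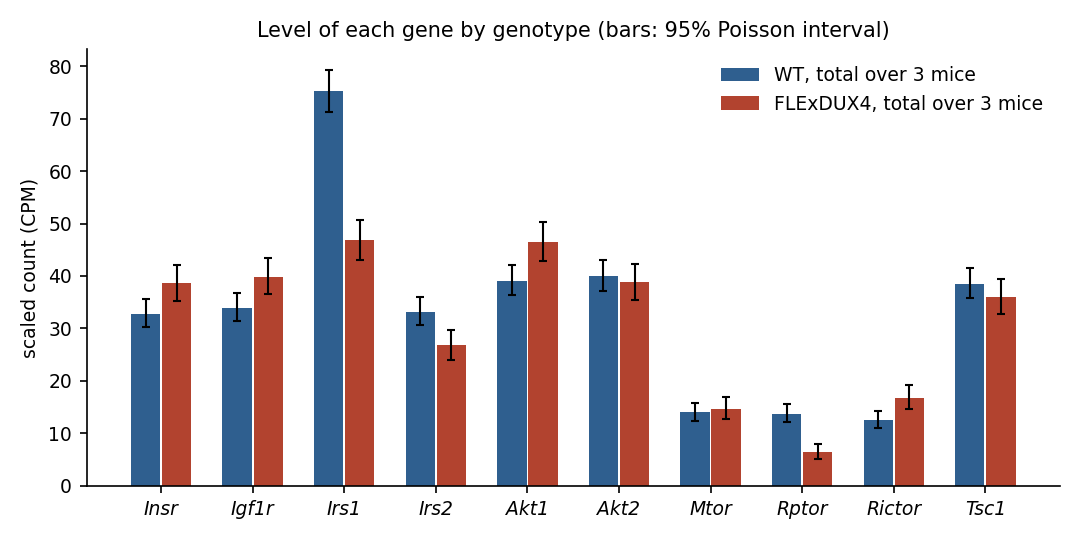
Level of each of the 10 genes in CPM after TMM scaling, for the WT and FLExDUX4 totals over 3 mice each. Error bars are 95% Poisson intervals for counting error, and Irs1 (75.2 in WT, 46.8 in FLExDUX4) and Rptor (13.7 and 6.40) are the pairs of bars that stand farthest apart in ratio.

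The genes were ordered by count within a total without division by length, because QuantSeq gives about one read per transcript whatever its length. How completely the reads of each gene were counted was not checked, so the order is one of counts. Rps6, a ribosomal protein gene, had only 56 counts in FLExDUX4 and 80 in WT. In WT, Irs1 had the highest count of the members at 75.2 CPM, and its interval did not overlap that of Akt2, the next at 40.0 CPM. Akt2, Akt1, Tsc1, Igf1r, Irs2 and Insr followed between 40.0 and 32.8 CPM, and neighbours in that order differed by less than counting error, except that Tsc1 exceeded Igf1r with 53.2% of the counts of both (exact binomial interval 50.5 to 55.9). Mtor, Rptor and Rictor formed the lowest group, at 14.0, 13.7 and 12.6 CPM, and their neighbours differed by less than counting error. In FLExDUX4, Irs1 was again first, at 46.8 CPM, but within counting error of the next gene, Akt1 at 46.5 CPM. Rptor, at 6.40 CPM, lay below Mtor at 14.6 CPM with no overlap of their intervals. Irs2, at 26.7 CPM, lay below Tsc1 at 36.0 CPM and above Rictor at 16.8 CPM without overlap with either.

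The receptors had nearly the same counts and the same ratio. Insr (ENSMUSG00000005534, chromosome 8 of GRCm38, 3122061 to 3279617, minus strand), the insulin receptor, had 501 counts in FLExDUX4 and 609 in WT. Its log2 ratio was 0.24 (interval 0.06 to 0.41). Igf1r (ENSMUSG00000005533, chromosome 7, 67952827 to 68233668, plus strand), the IGF-1 receptor, had 517 counts in FLExDUX4 and 630 in WT, a log2 ratio of 0.23 (interval 0.06 to 0.40). Both were above 0 with TMM scaling and slightly below it, at -0.04, when scaled to the spike-ins. Insr made up 49.2% of the counts of this pair in FLExDUX4 (exact binomial interval 46.1 to 52.3) and 49.2% in WT (interval 46.3 to 52.0). The difference of their log2 ratios was 0.004 (interval -0.24 to 0.25), a quantity that does not depend on how the totals are scaled.

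Of the adaptors, Irs1 was lower past the fold, and Irs2 had a ratio below 0 that was short of it with TMM scaling. Irs1 (ENSMUSG00000055980, chromosome 1, 82233101 to 82291416, minus strand) is the main insulin receptor substrate of skeletal muscle. It had 607 counts in FLExDUX4 and 1396 in WT, a log2 ratio of -0.68 (interval -0.82 to -0.55), or a linear ratio of 0.622. Irs2 (ENSMUSG00000038894, chromosome 8, 10984681 to 11008458, minus strand) had 347 counts in FLExDUX4 and 616 in WT. Its log2 ratio of -0.31 (interval -0.51 to -0.12) was short of the fold with TMM scaling and past it, at -0.59, with spike-in scaling. Irs1 was lower by more than Irs2 was, with a difference of log2 ratios of -0.37 (interval -0.61 to -0.13). Irs1 made up 69.4% of the counts of the 2 adaptors in WT (interval 67.3 to 71.4) and 63.6% in FLExDUX4 (interval 60.5 to 66.7), so that it had more counts than Irs2 in both totals.

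The Akt kinases differed little between the totals. Akt1 (ENSMUSG00000001729, chromosome 12, 112653821 to 112674884, minus strand), linked to growth, had 603 counts in FLExDUX4 and 725 in WT, a log2 ratio of 0.25 (interval 0.09 to 0.41). This ratio was -0.03 with spike-in scaling. Akt2 (ENSMUSG00000004056, chromosome 7, 27591552 to 27640826, plus strand), the isoform most tied to insulin-driven glucose uptake, had 503 counts in FLExDUX4 and 743 in WT. Its log2 ratio was -0.05 (interval -0.21 to 0.12), and -0.32 with spike-in scaling. Akt1 made up 54.5% of the counts of both kinases in FLExDUX4 (interval 51.5 to 57.5) and 49.4% in WT (interval 46.8 to 52.0). The difference of log2 ratios, Akt1 minus Akt2, was 0.30 (interval 0.07 to 0.53), which is past counting error but has no check against the spread between mice.

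**Figure D2:**
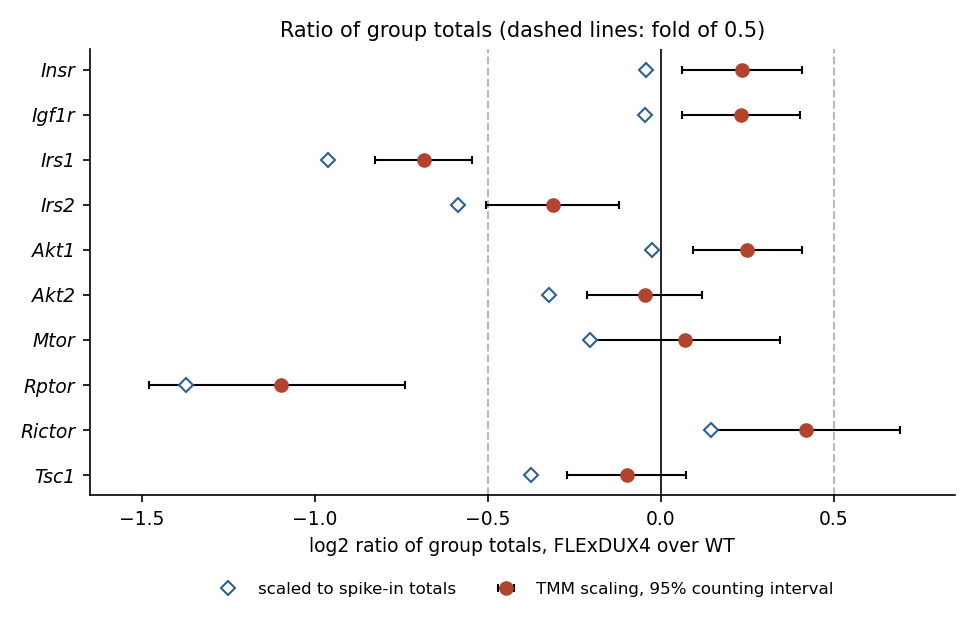
Log2 ratio of the FLExDUX4 over the WT total for each gene, with TMM scaling and its 95% counting interval (filled circles) and scaled to the spike-in totals (open diamonds). Irs1 at -0.68 and Rptor at -1.10 lie beyond the dashed line at -0.5 under TMM, and the spike-in scaling moves all genes by -0.28.

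Of the mTOR genes, Rptor was far lower in FLExDUX4 and Mtor and Rictor were not. Mtor (ENSMUSG00000028991, chromosome 4, 148448611 to 148557683, plus strand), the kinase common to both complexes, had 190 counts in FLExDUX4 and 259 in WT. Its log2 ratio was 0.07 (interval -0.21 to 0.35), and spike-in scaling gave -0.21. Angptl7, on the opposite strand within the bounds of Mtor, had 533 counts in FLExDUX4 and 238 in WT, and its 3′ end is apart from that of Mtor. Rptor (ENSMUSG00000025583, chromosome 11, 119602905 to 119899576, plus strand), the scaffold that brings substrates to mTOR complex 1, had 83 counts in FLExDUX4 and 255 in WT. Its log2 ratio was -1.10 (interval -1.48 to -0.74), a linear ratio of 0.467, and the lowest of the 10 genes under each of the scalings tried. It is also the member with the fewest counts. Rictor (ENSMUSG00000050310, chromosome 15), the scaffold of mTOR complex 2, had 218 counts in FLExDUX4 and 233 in WT. Its log2 ratio of 0.42 (interval 0.15 to 0.69) was the highest of the 10 and the single one still above 0, at 0.14, with spike-in scaling.

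Between the scaffolds, Rptor made up 52.3% of their summed counts in WT (interval 47.7 to 56.8) and 27.6% in FLExDUX4 (interval 22.6 to 33.0). Per count of Rictor there were 1.09 counts of Rptor in WT and 0.381 in FLExDUX4. The difference of log2 ratios, Rptor minus Rictor, was -1.52 (interval -1.99 to -1.06), the largest in size of the 5 pairs compared.

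**Figure D3:**
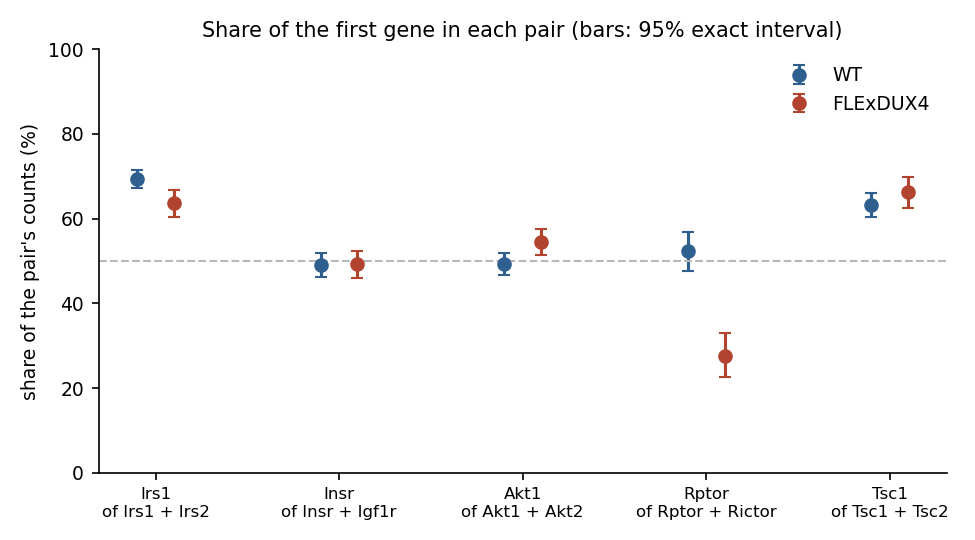
Share of the first gene in the summed counts of each pair, in percent, for the WT and FLExDUX4 totals, with 95% exact binomial intervals. Rptor takes 52.3% of its pair with Rictor in WT and 27.6% in FLExDUX4, while Insr takes 49.2% of its pair with Igf1r in both.

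Tsc1 (ENSMUSG00000026812, chromosome 2, 28641228 to 28691167, plus strand) encodes hamartin, which holds mTOR complex 1 in check together with the product of Tsc2. It had 467 counts in FLExDUX4 and 715 in WT, a log2 ratio of -0.10 (interval -0.27 to 0.07), while scaling to the spike-ins gave -0.37. Tsc2, its partner, had 238 counts in FLExDUX4 and 417 in WT, a log2 ratio of -0.29 (interval -0.53 to -0.06). Tsc1 made up 66.2% of the pair in FLExDUX4 (interval 62.6 to 69.7) and 63.2% in WT (interval 60.3 to 66.0), and the difference of log2 ratios was 0.19 (interval -0.10 to 0.49).

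Counted over all 10 genes, 5 had a log2 ratio above 0 and 5 below it, and with spike-in scaling 1 was above and 9 below. The median of the 10 log2 ratios was 0.01, and the median over all genes compared was -0.001. With spike-in scaling these medians were -0.26 and -0.28. The counting interval excluded 0 for 7 of the 10, of which 4 were higher (Insr, Igf1r, Akt1 and Rictor) and 3 lower (Irs1, Irs2 and Rptor). That interval excluded 0 for 41.1% of all genes compared, 20.5% higher and 20.6% lower, and for 41.9% of those in the members' range of counts, 21.7% higher and 20.2% lower. The median size of the log2 ratio was 0.24 over the members, 0.28 over all genes compared and 0.18 over the genes in the same range of counts.

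**Figure D4:**
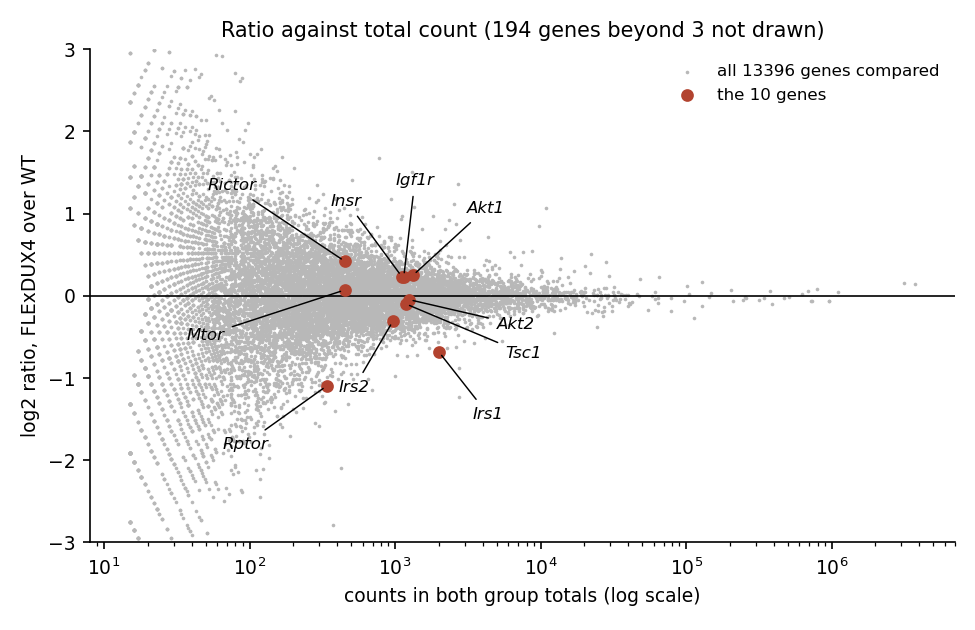
Log2 ratio of each gene, FLExDUX4 over WT, against its counts in both totals on a log axis, for all 13396 genes compared (grey) and the 10 members (red). Irs1 and Rptor lie at the lower edge of the genes of like count, the other 8 members lie between -0.31 and 0.42, and 194 genes beyond 3 are not drawn.

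The other genes of the pathway were taken from 11 lists, ordered from ligands to targets. They hold 125 genes, and 118 passed the filter on low counts. Past the fold, 11 of the 118 were higher and 9 lower, which is 16.9% against 22.6% of all genes. With spike-in scaling 4 were higher and 20 lower, beside 5.79% and 23.8% of all genes. Their median log2 ratio was 0.09, or -0.19 with spike-in scaling. With TMM scaling, no gene passed in either direction among the ligands, the IGF binding proteins, the PI3-kinase genes or the TSC complex and Rheb. With spike-in scaling, Pik3cb, a catalytic subunit of PI3-kinase, was lower at -0.70 (interval -1.27 to -0.16) and Tsc2 at -0.57 (interval -0.80 to -0.34).

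Upstream of the receptors, Igf1, the growth factor that muscle makes itself, had 471 counts in FLExDUX4 and 662 in WT, a log2 ratio of 0.03 (interval -0.15 to 0.20). Of 7 IGF binding proteins, 5 were compared. Igfbp5, which had the most counts of them, had 2739 in FLExDUX4 and 4352 in WT, a log2 ratio of -0.15 (interval -0.22 to -0.08). At the receptors, 12 of 14 adaptors and brakes were compared. Past the fold, 1 of them was higher and 2 lower, 25% against 22.6% of all genes. The lower ones were Socs3, which targets IRS proteins and cytokine receptors, with 30 counts in FLExDUX4 and 94 in WT (log2 ratio -1.12, interval -1.78 to -0.52), and Enpp1, an inhibitor of the insulin receptor, with 14 and 50 counts (log2 ratio -1.28, interval -2.29 to -0.44). Ptprf, a receptor phosphatase, was higher, with 98 counts in FLExDUX4 and 88 in WT, a log2 ratio of 0.67 (interval 0.24 to 1.10). With spike-in scaling none of this list was higher and 3 were lower, beside 5.79% and 23.8% of all genes. Ptpn1 was the one added, at -0.56.

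All 11 genes of PI3-kinase and the lipid phosphatases were compared and none was past the fold with TMM scaling, with a median log2 ratio of 0.18 and 9 of the 11 above 0. With spike-in scaling the median was -0.10, with 2 of the 11 above 0 and 9 below. Pik3r1, the main regulatory subunit, had 877 counts in FLExDUX4 and 1049 in WT, a log2 ratio of 0.26 (interval 0.13 to 0.39). With spike-in scaling this ratio was -0.02. Among 9 genes that act on Akt, Pdpk1, which encodes PDK1, had a ratio of 0.03 (interval -0.11 to 0.16). The Akt phosphatases Phlpp1 and Phlpp2 went opposite ways, with 83 counts in FLExDUX4 against 197 in WT for Phlpp1 (log2 ratio -0.73, interval -1.12 to -0.35) and 52 against 46 for Phlpp2 (log2 ratio 0.69, interval 0.09 to 1.30). With spike-in scaling Phlpp2 was short of the fold, at 0.42.

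Among 8 other subunits and assembly factors of the mTOR complexes, 1 was higher and 1 lower past the fold, 25% against 22.6% of all genes. Both belong to the machinery that assembles mTOR and its relatives, Tti1 with 148 counts in each total (log2 ratio 0.52, interval 0.18 to 0.85) and Telo2 with 29 counts in FLExDUX4 and 79 in WT (log2 ratio -0.91, interval -1.60 to -0.30). With spike-in scaling Tti1 was short of the fold, at 0.24. Deptor, an inhibitor bound to mTOR, had 1470 and 2269 counts, a log2 ratio of -0.11 (interval -0.21 to -0.01). Mlst8, a subunit of both complexes, had 59 and 95 counts, a log2 ratio of -0.17 (interval -0.66 to 0.31). Mapkap1, a subunit of mTOR complex 2, had 541 and 688 counts, a log2 ratio of 0.17 (interval 0.004 to 0.33). With spike-in scaling it was -0.11 (interval -0.27 to 0.06). Rheb, the activator that the TSC complex restrains, had a ratio of 0.002 (interval -0.15 to 0.16).

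The list of amino acid and stress inputs to mTOR complex 1 held 27 genes, with a median of 0.09. Of them 4 were higher and 4 lower past the fold, 29.6% against 22.6% of all genes. With spike-in scaling 1 was higher, Wdr59, and 8 were lower, beside 5.79% and 23.8% of all genes. Rraga, Lamtor2, Castor2 and Ddit4l were then past the fold, and Flcn, Fnip2 and Wdr24 were not. Flcn and Fnip2, whose products act together on Rag GTPases, were higher, with log2 ratios of 0.62 (interval 0.44 to 0.80) and 0.75 (interval 0.05 to 1.45). The GATOR2 subunits Wdr24 and Wdr59 were also higher, at 0.69 (interval 0.23 to 1.15) and 0.85 (interval 0.39 to 1.32), while a further GATOR2 subunit, Mios, was lower at -0.59 (interval -0.96 to -0.24). The lower genes included 2 that restrain mTOR complex 1. Ddit4, known as REDD1 and induced by stress and glucocorticoids, had 521 counts in FLExDUX4 and 1083 in WT, a log2 ratio of -0.54 (interval -0.69 to -0.39). Sesn3, a FoxO target, had 130 counts in FLExDUX4 and 309 in WT, a log2 ratio of -0.73 (interval -1.04 to -0.43). The fourth lower gene, the Rag GTPase Rragb, had only 3 and 16 counts (log2 ratio -1.72, interval -4.32 to -0.09). Ddit4l, a relative of Ddit4 that is abundant in muscle, had 4186 and 8200 counts and a ratio of -0.45 (interval -0.51 to -0.40), short of the fold.

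**Figure D5:**
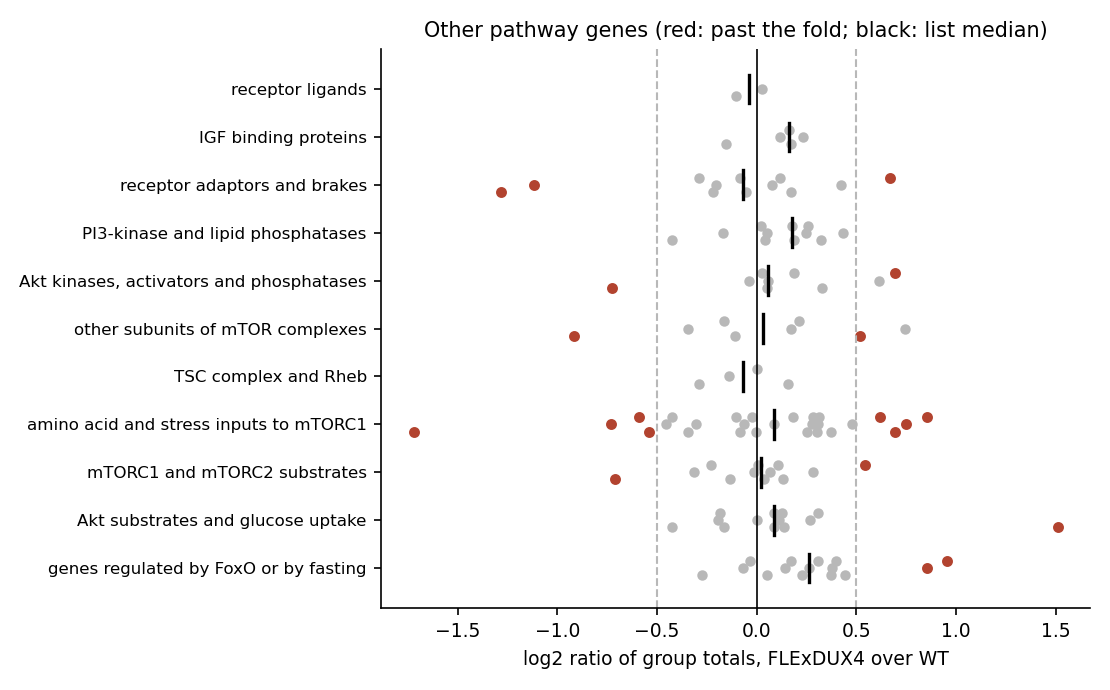
Log2 ratio of FLExDUX4 over WT for the 118 other pathway genes compared, 1 point per gene, in rows from ligands to targets. Red points are past the fold of 0.5 with an interval that excludes 0 with TMM scaling (11 higher, 9 lower), and black bars are list medians. The row of FoxO and fasting genes has the highest median, 0.26, with 13.3% of its genes past the fold against 22.6% of all genes.

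Downstream of mTOR, 12 of 13 substrates were compared, 1 higher and 1 lower past the fold, 16.7% against 22.6% of all genes. Eif4ebp1, the translation repressor that mTOR complex 1 inactivates, had 640 counts in FLExDUX4 and 629 in WT, a log2 ratio of 0.54 (interval 0.38 to 0.70). The study had listed it from these samples. With spike-in scaling its ratio was 0.27, and none of the 12 was higher and 3 were lower, Eif4e and Eef2k being added. Rps6kb2, which encodes S6 kinase 2, had 101 and 237 counts, a log2 ratio of -0.71 (interval -1.06 to -0.37). Rps6kb1, which encodes S6 kinase 1, had 767 and 1204 counts and a log2 ratio of -0.13 (interval -0.27 to -0.002).

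Downstream of Akt, 13 genes were compared, and 7.69% of them were past the fold against 22.6% of all genes. The single one was Foxo1, also picked by the study from these samples, with a log2 ratio of 1.51 (interval 1.34 to 1.68). Spike-in scaling added Foxo6, lower at -0.70. Slc2a4, the insulin-responsive glucose transporter GLUT4, had 2859 counts in FLExDUX4 and 3749 in WT, a log2 ratio of 0.13 (interval 0.05 to 0.20), while scaling to the spike-ins gave -0.15. Tbc1d4, the Akt substrate that holds GLUT4 vesicles inside the cell, had a ratio of 0.14 (interval 0.004 to 0.27). With spike-in scaling it was -0.14 (interval -0.27 to -0.005). A list held 15 genes regulated by FoxO or by fasting, with a median of 0.26, or -0.01 with spike-in scaling. Past the fold, 2 were higher and none lower, 13.3% against 22.6% of all genes. With spike-in scaling 2 were higher and 1, Cited2, lower, beside 5.79% and 23.8% of all genes. The list does not hold every such gene, and Sesn3, given above as lower, is a FoxO target outside it. Pdk4, which restrains glucose oxidation in fasting, had 5470 counts in FLExDUX4 and 4329 in WT, a ratio of 0.85 (interval 0.80 to 0.91), and Klf15, a transcription factor induced by glucocorticoids and fasting, had 342 and 252 counts, a ratio of 0.96 (interval 0.72 to 1.20). Of the atrophy ubiquitin ligases, Trim63 had a ratio of 0.37 (interval 0.29 to 0.45) and Fbxo32 of -0.03 (interval -0.08 to 0.02). With spike-in scaling these ratios were 0.10 (interval 0.01 to 0.18) and -0.31. By RT-qPCR the study found no significant difference for either gene, in its section on older mice.

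Markers of other cell types were measured in the same totals. Of all genes compared, 11.3% were higher past the fold and 11.3% lower, or 5.79% and 23.8% with spike-in scaling. The summed level of 6 adipocyte markers was 383.8 CPM in FLExDUX4 and 303.0 in WT, of which Cfd alone had 113.1 and 61.6. Adipoq, at 0.70, and Cfd, at 0.88, were higher past the fold. Plin1, at 0.41, Cidec, at 0.20, Fabp4, at 0.11, and Lep, at -0.82, were not past it. With spike-in scaling Cfd was higher and Lep lower. The summed level of 5 endothelial markers was 160.8 CPM in FLExDUX4 and 188.2 in WT. Of the 5, 2 were lower past the fold, or 3 with spike-in scaling. The 6 immune markers summed to 48.6 and 49.8 CPM, with Cd79a at 0 in both totals and Cd3e at 0 in WT. None of the 4 immune markers compared was past the fold, but Cd68 and Adgre1 were lower with spike-in scaling. The 5 fibroblast markers summed to 1247 and 1129 CPM, with Col1a1 higher at a log2 ratio of 0.53 (interval 0.47 to 0.60) and short of the fold, at 0.26, with spike-in scaling. The 4 satellite cell markers summed to 36.4 and 38.6 CPM, and of them Pax7 was lower, at -0.82 (interval -1.44 to -0.25), and at -1.09 with spike-in scaling. The 5 Schwann cell markers summed to 148.7 and 141.1 CPM, with none past the fold and S100b lower with spike-in scaling. The 5 blood markers summed to 1279 and 1020 CPM, with none past the fold under either scaling. The part of these cells in the ratios of the pathway genes was not tested.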

How the data were processed

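Muscle RNA of 3 FLExDUX4 and 3 WT mice was sequenced with QuantSeq. The authors trimmed the reads with Cutadapt 1.16 and aligned them with STAR 2.5.3a to GRCm38 joined to ERCC and SIRV spike-in sequences. The submitters' processing notes also name featureCounts 1.6.2. The deposited counts per gene are whole numbers that the authors summed over the mice of each genotype, without normalization. The deposited table also holds the authors' own DESeq2 comparison (mean, fold changes and p-values) as well as 6 columns for single samples, under names found in no label. Neither was used. The quasi-likelihood test planned for values per sample was therefore not run.

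TMM factors for the totals of both genotypes came from edgeR 4.0.16 in R 4.3.3, computed on 13396 genes that passed filterByExpr, with 99 spike-ins left out. A pseudocount of 0.5 was added before taking log2 ratios. Intervals at 95% are Clopper-Pearson for ratios and shares, conditional for differences within a pair, and Poisson for levels (Python 3.11.15, scipy 1.17.1). The scripts were tested on simulated Poisson counts with no spread between mice, so that check cannot speak to such spread. Intervals cover counting error only, and reads without molecular identifiers are not independent molecules. The named genes are the 10 members and genes of the pathway lists and of the lists of cell type and limb markers. The members and lists were chosen with earlier results of these data known. Angptl7 was named after its values were seen. Castor1 and Castor2 were matched by their older symbols Gatsl3 and Gatsl2. Gene bounds are from GENCODE M21 on GRCm38 and were printed for the 9 members whose start equals the deposited one. No annotated gene overlapped the 3′ end of a member. Promoter sequences are from RefSeq.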

Additional observations from a re-analysis of the deposited data

How the results depend on the processing

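No paired analysis was possible because the columns of single samples carry names found in no label and were not used, and leaving out each mouse in turn was not run for that reason. Irs1 and Rptor were past the fold under TMM, RLE, upper quartile, gene totals and spike-in totals, without a filter, with a minimum of 10 counts per total, and with a pseudocount of 5. Over these settings the log2 ratio of Irs1 ran from -0.96 to -0.68 and that of Rptor from -1.37 to -1.05, both lowest with spike-in totals. Spike-in totals moved the median of the 10 members from 0.01 to -0.26 and turned Insr, Igf1r, Akt1 and Mtor below 0, none of which was past the fold. Whether the spike-in shift reflects the amount added or the mRNA per sample was not tested. With a log2 ratio of at least 1, 1 member (Rptor) was past the fold, and with an interval that excludes 0 whatever the size, 7 were. Of all genes compared, 11.6% were past a log2 ratio of 1, 22.6% past 0.5 and 41.1% past the interval alone, against 0.455%, 7.87% and 41.9% of those in the members' range of counts. The differences within the 5 pairs do not depend on scaling and moved by less than their intervals with a pseudocount of 5. Rptor, with 83 counts in FLExDUX4, has the widest interval of the members, so counting error limits it most.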
